A study of Mus musculus with 8 samples.

Results

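The genes of the circadian clock and its outputs Arntl, Clock, Npas2, Cry1, Per2, Per3, Nr1d1, Nr1d2, Dbp and Noct were examined in livers of control and Smo-KO mice. They were taken by symbol, 10 of the 25239 symbols counted, and were chosen from earlier results of this same contrast, so their differences between the groups are given below as description, with no p-value for any of them. Of these, 9 had enough reads to enter the fit over 12977 genes, and Npas2 did not.

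Bulk RNA-Seq had been done on 1 liver from each of 8 adult male mice, 4 control and 4 Smo-KO, to ask what losing Smo in hepatocytes does in steatohepatitis. All 8 carried floxed Smo (Smo fl/fl, from the Smo tm2Amc/J line) on C57Bl6/J, and all were fed the CDA-HFD for 6 weeks, a diet that lacks choline, has a defined set of amino acids and takes 60% of its kcal from fat. The vectors, injected into the tail vein 1 week before sacrifice, were adeno-associated viruses (AAV8) whose TBG promoter drives expression in hepatocytes. Control mice received AAV8-TBG-Luciferase and Smo-KO mice AAV8-TBG-Cre, so the mice labelled WT also had the floxed allele, and cells other than hepatocytes kept Smo in both groups. Neither the hour of sacrifice nor the feeding state was given in the sources used here, and expression of clock genes in liver depends on both. Each liver is a single time point.

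In the clock, a transcription factor made of BMAL1 (the product of Arntl) with CLOCK or NPAS2 binds E-box elements and turns on the Per and Cry genes, whose proteins come back to block it. Another loop runs through REV-ERB alpha and beta (Nr1d1 and Nr1d2), which are also switched on through E-boxes and which repress Arntl, Clock, Npas2 and Cry1 through elements called RREs, where ROR proteins activate. Dbp, Tef and Hlf act on D-box elements, which Nfil3 represses, and carry the rhythm to output genes of liver metabolism. In mouse liver the transcripts of Arntl, Clock and Npas2 therefore peak at roughly the opposite time of day from those of Nr1d1 and Dbp, with Per and Cry transcripts following in between.

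These elements can be read in the DNA around the start sites of the genes. Promoter windows of 300 bases, 250 before and 50 after each start, came from RefSeq (assembly GRCm38.p6), and 9 of the 10 genes matched, with 12 windows because Arntl and Clock have several starts. The following motifs were searched on both strands by their letters alone. The E-box CACGTG was in 7.15% of all 32851 mouse windows, the E′-box CACGTT in 4.68%, the RRE core AGGTCA in 16.3% and the D-box TTATGNAA in 3.38%. Of the 9 genes, 7 held a match, and Npas2 and Dbp held none, which says only that these letters were not in their windows. The share of all genes with a match to any of these motifs was not counted, and genes with several windows had more chances of a match. Nothing is therefore read from the 7 of 9. The stretches with a match are given to show where the elements of both loops lie by these genes, and the order of the results below follows the genes' roles and not the matches. They run 5′ to 3′ on the strand of the gene, with the motif in capitals. In Cry1 and Nr1d1 the E′-box, in Clock the RRE core and in Noct the D-box lie on the other strand, so their capitals read as the complement in reverse. A match is a description and not a measured binding site.
Cry1, chr10:85185084-85185158 (- strand), E′-box 79 and E-box 60 bases before the start: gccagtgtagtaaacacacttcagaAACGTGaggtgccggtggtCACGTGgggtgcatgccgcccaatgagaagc
Per3, chr4:151044791-151044895 (- strand), D-boxes 205 and 158 bases before the start: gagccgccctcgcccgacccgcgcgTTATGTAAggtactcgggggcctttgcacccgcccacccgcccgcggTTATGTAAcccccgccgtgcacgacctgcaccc
Nr1d1, chr11:98775378-98775430 (- strand), E′-box 28 bases before the start: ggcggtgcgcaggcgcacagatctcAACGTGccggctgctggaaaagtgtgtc
Nr1d2, chr14:18239153-18239208 (- strand), RRE core 77 bases before the start: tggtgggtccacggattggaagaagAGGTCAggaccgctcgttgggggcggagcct
Noct, chr3:51224328-51224385 (+ strand), D-box 94 bases before the start: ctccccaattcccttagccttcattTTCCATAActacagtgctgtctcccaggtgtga
Clock, chr5:76303591-76303646 (- strand), RRE core 119 bases before 1 of its 3 starts: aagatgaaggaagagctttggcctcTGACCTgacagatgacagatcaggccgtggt
Arntl, chr7:113207531-113207560 (+ strand), RRE core 32 bases past 1 of its starts: aggcagaaagtAGGTCAgggacggaggtgc

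Reads on genes numbered 9177277 to 9999732 in control livers and 8203299 to 9543675 in Smo-KO livers. Values are CPM, reads scaled to a common library size with TMM factors, and 3 reads, the least taken as more than none, were worth 0.296 to 0.365 CPM. Such limits cover counting error only. Smo, the deleted gene, was 8.39 ± 0.270 CPM in control livers and 4.55 ± 0.764 CPM in Smo-KO livers (mean ± SD, n = 4 each), or 54.3% of control (log2 fold change -0.88, SE 0.16, adjusted p = 0.0957 by edgeR's quasi-likelihood test). Every Smo-KO liver was below every control liver, in the direction of the labels.

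Single livers were often at the edge of their group in these genes. Of the 4 control livers, control 3 had the highest Arntl, Clock and Npas2 and the lowest Per2, Per3, Nr1d1, Dbp and Noct. It was also the lowest of the controls in 8 of the 10 other clock-loop genes tested, among them Per1, Cry2, Bhlhe40, Bhlhe41, Ciart, Tef and Hlf, and the highest in Rora, while control 1 was the highest of the controls in 7 of them. Among Smo-KO livers, Smo-KO 1 had the highest Arntl, Npas2 and Nr1d1 and the lowest Cry1, Per2, Per3, Nr1d2 and Noct, and Smo-KO 3 had the lowest Arntl, Npas2, Nr1d1 and Dbp and the highest Cry1 and Per2. Arntl was thus highest of the controls in control 3 and lowest of the Smo-KO livers in Smo-KO 3, and Per2 the reverse, whereas Nr1d1, Dbp, Cry2, Bhlhe40, Bhlhe41 and Ciart were lowest of their group in both livers.

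Arntl, Noct, Nr1d1 and Clock had lower means in Smo-KO livers, and Per3, Per2, Nr1d2, Cry1 and Dbp had higher means. The median log2 fold change of the 9 genes was 0.32, with 5 higher and 4 lower, beside -0.00 over all genes tested, of which 6470 were higher and 6507 lower. The groups did not overlap in 3 of 9 genes, Per3 and Nr1d2 (higher) and Arntl (lower), whereas over all genes tested 7.37% did not overlap, 3.03% with Smo-KO livers higher and 4.34% with Smo-KO livers lower. At an unadjusted p under 0.05 edgeR counted 7 of the 9, 3 higher and 4 lower, where 13.8% of all genes were counted, 6.7% higher and 7.15% lower. At an adjusted p under 0.05 edgeR called 0 of the 9 and 0% of all genes, the lowest adjusted p over all genes being 0.0785, and DESeq2 called 3 of the 9 where it called 1.26% of all genes. Since the genes were chosen on this contrast, nothing is read from these counts. In bulk liver, fewer cells of a type and less RNA per cell cannot be told apart.

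**Figure D1:**
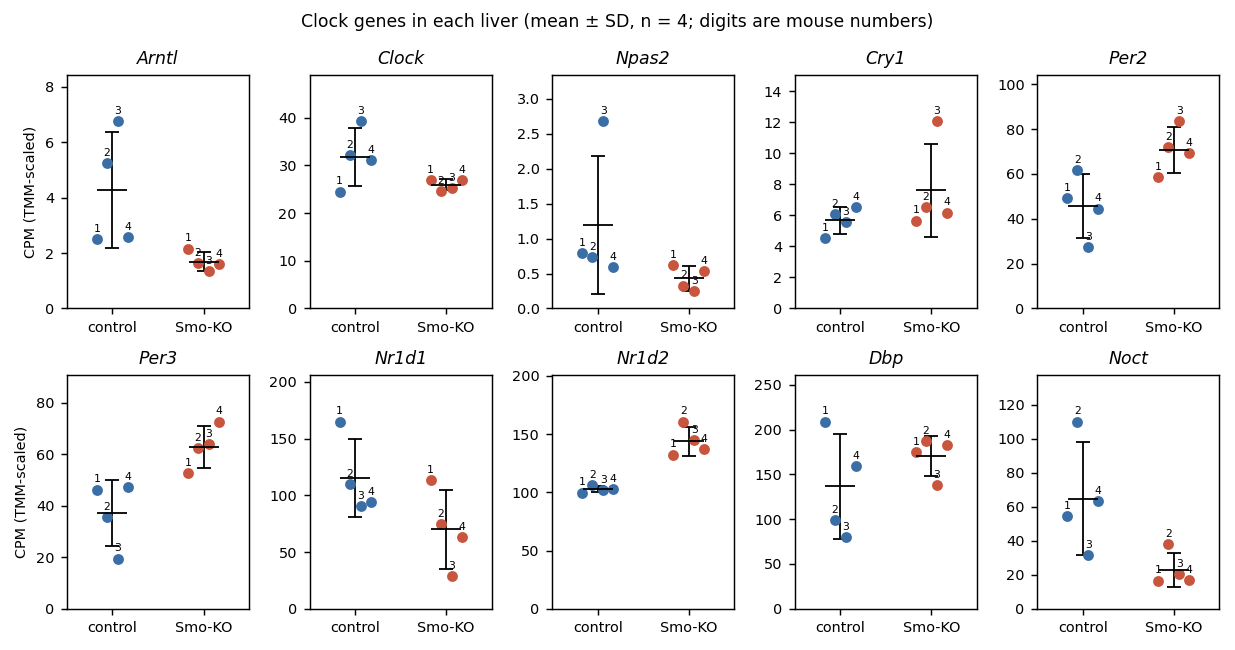
CPM (TMM-scaled) of each of the 10 clock genes in each liver, 1 point per mouse with its number, and the mean ± SD of each group (n = 4) as bars. All axes start at 0. Arntl is lower, and Per3 and Nr1d2 are higher, in all 4 Smo-KO livers than in any control liver, and control 3 alone lifts the control mean of Npas2.

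Arntl, which encodes BMAL1, lies at chr7:113207465-113314126 (GRCm38, + strand). Its levels were 2.49, 5.24, 6.75 and 2.57 CPM in control livers 1 to 4 and 2.16, 1.63, 1.34 and 1.60 CPM in Smo-KO livers 1 to 4. All Smo-KO livers lay below all control livers, yet control 1 and control 4 were closer to Smo-KO 1 than to control 2 and control 3. The means were 4.26 ± 2.09 and 1.68 ± 0.345 CPM, so that Smo-KO livers held 39.5% of the control level (log2 fold change -1.33, SE 0.34). Without control 3 the log2 fold change was -1.01, and without both livers numbered 3 it was -0.92. These values rest on few reads, 22 to 68 per control liver and 11 to 21 per Smo-KO liver.

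Clock, at chr5:76209868-76304792 (- strand), encodes the partner of BMAL1. It was 24.5, 32.1, 39.2 and 31.0 CPM in control livers and 26.9, 24.6, 25.2 and 26.9 CPM in Smo-KO livers. The groups overlapped, because control 1 was as low as the lowest Smo-KO liver. The mean was 31.7 ± 6.04 CPM in control and 25.9 ± 1.17 CPM in Smo-KO livers (log2 fold change -0.29, SE 0.13), and the log2 fold change was -0.17 without control 3. Among Smo-KO livers Clock varied by a CV of only 4.53%, against 19.0% among control livers.

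Npas2, at chr1:39193731-39363236 (+ strand), encodes another partner of BMAL1 and was the least abundant of the 10. It had 7, 7, 27 and 6 reads in control livers and 6, 3, 2 and 5 in Smo-KO livers, too few to pass the filter. In CPM these were 0.793, 0.733, 2.68 and 0.593 in control livers and 0.618, 0.327, 0.244 and 0.532 in Smo-KO livers. The control mean of 1.20 ± 0.991 CPM came mostly from control 3, and the other 3 control livers were close to Smo-KO 1 and Smo-KO 4. The Smo-KO mean was 0.430 ± 0.174 CPM, with 2 livers at or under the limit of 3 reads.

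Of the repressors in the main loop, Cry1 encodes a cryptochrome that blocks BMAL1 and CLOCK, and it lies at chr10:85131700-85185064 (- strand). It was 4.53, 6.07, 5.56 and 6.52 CPM in control livers and 5.66, 6.54, 12.1 and 6.18 CPM in Smo-KO livers. Smo-KO 3 was well above every other liver, and without it the log2 fold change was 0.11 in place of 0.41 (SE 0.24), whereas without control 3 it was 0.40. The means were 5.67 ± 0.855 and 7.61 ± 2.99 CPM, and the groups overlapped.

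Per2, a period gene at chr1:91415982-91459324 (- strand), encodes the partner of the cryptochromes. Control livers held 49.1, 61.7, 27.4 and 44.6 CPM and Smo-KO livers 58.5, 71.8, 83.4 and 69.3 CPM. Only control 2 reached into the range of the Smo-KO livers, above Smo-KO 1. The means were 45.7 ± 14.2 and 70.8 ± 10.2 CPM, 155% of control (log2 fold change 0.63, SE 0.19), and the log2 fold change was 0.45 without control 3 and 0.37 without both livers numbered 3.

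Per3, at chr4:151003652-151044665 (- strand), is a period gene that the clock can run without, and its window holds 2 D-boxes. Its levels were 46.3, 35.5, 19.5 and 47.1 CPM in control livers against 52.6, 62.3, 64.0 and 72.7 CPM in Smo-KO livers. Each Smo-KO liver exceeded each control liver, and the closest were Smo-KO 1 and control 4. The means were 37.1 ± 12.9 and 62.9 ± 8.24 CPM (log2 fold change 0.76, SE 0.22), the largest higher value of the 9 genes over all 8 livers. The log2 fold change was 0.55 without control 3, and 0.75 without control 2, where that of Per2 was 0.81.

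The REV-ERB genes had means on opposite sides of control. Nr1d1, at chr11:98767932-98775333 (- strand), encodes REV-ERB alpha. Control livers held 164.9, 109.7, 90.7 and 94.2 CPM of it and Smo-KO livers 113.5, 74.5, 28.6 and 63.5 CPM. The groups overlapped through Smo-KO 1, which was above 3 of the 4 control livers, while the lowest liver was Smo-KO 3. The means were 114.9 ± 34.4 and 70.0 ± 35.0 CPM (log2 fold change -0.71, SE 0.31), with a range of -1.04 without Smo-KO 1 to -0.45 without Smo-KO 3, and -0.80 without control 3.

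Nr1d2, at chr14:18204054-18239127 (- strand), encodes REV-ERB beta and was the steadiest of the 10 genes in control livers. It was 99.7, 106.0, 101.6 and 102.8 CPM in control livers and 132.4, 160.7, 144.8 and 136.8 CPM in Smo-KO livers. The control livers lay within a few CPM of each other and all Smo-KO livers were above them. The means were 102.5 ± 2.63 and 143.7 ± 12.5 CPM, 140% of control (log2 fold change 0.49, SE 0.09), and leaving out any 1 liver moved the log2 fold change only between 0.43 and 0.53 (0.49 without control 3).

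The ratio of Nr1d1 to Nr1d2 within each liver, a measure picked after the values were seen, was 1.66, 1.04, 0.893 and 0.916 in control livers and 0.857, 0.464, 0.198 and 0.464 in Smo-KO livers. All Smo-KO livers were below all control livers, but Smo-KO 1 and control 3 nearly met. The means were 1.13 ± 0.359 and 0.496 ± 0.272. The plot of one gene against the other shows the shift as a move to the right, shared by all Smo-KO livers, and a move down that Smo-KO 1 did not share.

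**Figure D2:**
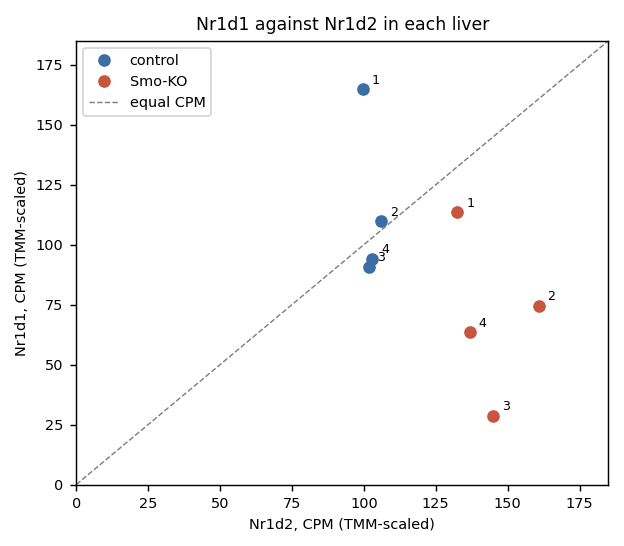
CPM of Nr1d1 (vertical axis) against CPM of Nr1d2 (horizontal axis), 1 point per liver with its mouse number, and a dashed line where both are equal. The 4 control livers stand in a narrow band of Nr1d2 from 99.7 to 106.0 CPM, and the 4 Smo-KO livers lie to the right, from 132.4 to 160.7 CPM, and below the dashed line.

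Dbp encodes a transcription factor that acts on D-boxes and lies at chr7:45705088-45710203 (+ strand). It was 209.0, 99.3, 80.4 and 158.9 CPM in control livers and 174.8, 186.8, 138.1 and 182.9 CPM in Smo-KO livers. Control livers alone spanned a 2.60-fold range on both sides of the Smo-KO livers, so no separation was seen. The means were 136.9 ± 58.6 and 170.7 ± 22.3 CPM (log2 fold change 0.32, SE 0.24), and the log2 fold change was 0.60 without control 1 and 0.14 without control 3.

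Noct, at chr3:51224447-51251644 (+ strand), encodes nocturnin, a rhythmic enzyme that removes a phosphate from NADP(H). Control livers held 54.4, 110.0, 31.4 and 63.4 CPM and Smo-KO livers 16.6, 37.8, 20.6 and 16.9 CPM. The groups overlapped in 1 pair, Smo-KO 2 being above control 3. The means were 64.8 ± 33.0 and 23.0 ± 10.1 CPM, 35.5% of control (log2 fold change -1.50, SE 0.34), the largest difference among the 9 genes over all 8 livers. Without control 3, the lowest control, the log2 fold change was -1.72, and leaving out any 1 liver gave -1.85 to -1.11, the smallest without control 2. Without control 2, control 4 or Smo-KO 1, Arntl lay farther from 0 (-1.22, -1.51 and -1.47) than Noct (-1.11, -1.50 and -1.36). Leaving out control 3 thus moved Noct away from 0 and Arntl and Clock towards it.

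Compared per length, as CPM per kb of exon (the union of all GENCODE M21 exons), Dbp and the REV-ERB genes were the most abundant of the 10 in control livers and Arntl and Npas2 the least. Dbp (45.7 ± 19.6 CPM per kb) was followed by Nr1d1 (37.3 ± 11.2), Nr1d2 (19.0 ± 0.487), Per2 (7.80 ± 2.42) and Noct (6.08 ± 3.10 CPM per kb). Below them were Per3 (3.86 ± 1.34), Clock (2.31 ± 0.440), Cry1 (1.70 ± 0.256), Arntl (0.567 ± 0.278) and Npas2 (0.250 ± 0.207 CPM per kb). Of the 9 pairs of neighbours in this order only 3 were separated in all livers, Nr1d1 above Nr1d2, Nr1d2 above Per2 and Cry1 above Arntl. In Smo-KO livers the order of the REV-ERB genes was turned, with Nr1d2 at 26.6 ± 2.30 and Nr1d1 at 22.8 ± 11.4 CPM per kb, although those livers overlapped. Noct, at 2.16 ± 0.943 CPM per kb, came after Per3 (6.55 ± 0.858) and Cry1 (2.28 ± 0.895), and it overlapped with Cry1. In Smo-KO livers 5 of the 9 neighbouring pairs were separated.

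Most of these genes varied more between mice of 1 group than other genes did. The biological coefficient of variation that edgeR fitted within groups had a median of 12.0% over all genes tested. Noct (32.3%) and Arntl (28.3%) were at percentiles 98.95 and 97.9 of all genes, and Nr1d1, Dbp, Per3, Cry1 and Per2 were between percentiles 89.2 and 98.5. Clock was at percentile 54.6, and Nr1d2, at 9.62%, was at percentile 11.6. Among control livers the highest value was 3.51 times the lowest for Noct, 2.71 times for Arntl and 1.06 times for Nr1d2.

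As a rough description of each liver, the mean log2 CPM of Arntl, Clock, Npas2 and Cry1 minus that of the other 6 genes was taken. It is called the phase index here, but it was not checked against livers of known hour. Of the 6 genes subtracted, Nr1d1 and Noct had lower means in Smo-KO livers and the others higher means, so they partly cancel. It was -4.36, -3.83, -2.56 and -4.05 in control livers and -4.09, -4.57, -4.04 and -4.20 in Smo-KO livers. Control 3 was far above the rest, and the other 3 control livers covered the same range as most Smo-KO livers. The means were -3.70 ± 0.793 and -4.23 ± 0.239, a difference of -0.53 that was -0.14 without control 3. Arntl as a percentage of Dbp, another such description, was 1.19, 5.27, 8.40 and 1.62 in control livers and 1.24, 0.875, 0.970 and 0.873 in Smo-KO livers. Here control 2 and control 3 were high, and control 1 and control 4 were near the Smo-KO livers. Since hours of sacrifice were not given, a difference in hour between mice and a difference made by the vector cannot be told apart.

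**Figure D3:**
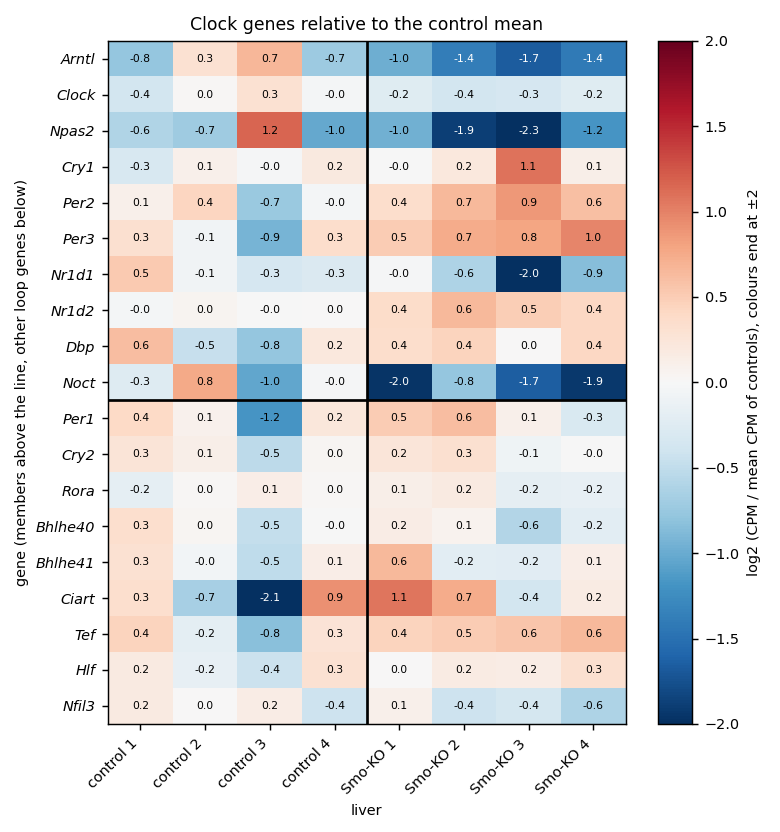
log2 of each liver's CPM over the control mean (colour, with the value printed) for the 10 clock genes above the line and 9 other genes of the loop below it, 1 column per liver and controls at left. Control 3 is high in Arntl, Clock and Npas2 and low in most rows beneath, and Nr1d2 is even across the controls and higher in each Smo-KO liver.

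Another 11 genes of the loop were examined, of which 10 were tested (Arntl2, at a mean of 0.157 CPM in control livers, was not). Of these, 2 were higher in Smo-KO livers at an unadjusted p under 0.05 (among them Tef), 0 were lower, and 0 passed an adjusted p under 0.05 by edgeR. At that adjusted p DESeq2 called 1 of the 10, and edgeR called 1 with Smo-KO 1 left out. Tef, a relative of Dbp, was 227.3, 146.0, 93.3 and 202.6 CPM in control livers and 226.7, 237.6, 246.8 and 262.3 CPM in Smo-KO livers. Its Smo-KO livers were even and its control livers were not, with control 3 lowest (log2 fold change 0.54, SE 0.21, adjusted p = 0.282 by edgeR's quasi-likelihood test, and 0.35 without control 3).

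The other 8 did not pass an unadjusted p under 0.05. Per1, the third period gene, had a mean of 42.6 ± 16.5 CPM in control and 51.4 ± 14.1 CPM in Smo-KO livers (log2 fold change 0.28, SE 0.28, and 0.03 without control 3). Ciart, a repressor of the loop, varied most, with 10.4, 5.24, 1.89 and 15.6 CPM in control livers and 17.4, 13.8, 6.46 and 9.26 CPM in Smo-KO livers. Within both groups the liver numbered 3 had the least Ciart. Nfil3, which represses at D-boxes, had a log2 fold change of -0.29 (SE 0.17), and Hlf, the third factor of the Dbp family, one of 0.17 (SE 0.14, and 0.05 without control 3). The log2 fold changes of Cry2, Bhlhe41, Rora and Bhlhe40, which encode the other cryptochrome, the repressors DEC2 and DEC1 and the activator ROR alpha, lay between -0.11 and 0.14.

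Of 10 genes for turnover of the clock proteins and for co-repressors, 1 was higher at an unadjusted p under 0.05 and 0 were lower. It was Usp2, a deubiquitinase whose transcript is itself rhythmic, with a mean of 31.5 ± 17.3 CPM in control and 52.9 ± 8.28 CPM in Smo-KO livers (log2 fold change 0.75, SE 0.32, adjusted p = 0.320 by edgeR). Without control 3 its log2 fold change was 0.48, and the count of higher genes was 0 with DESeq2 and without Smo-KO 2, Smo-KO 3 or Smo-KO 4. The kinases Csnk1d (log2 fold change -0.14), Csnk1e (-0.06) and Gsk3b (-0.17), the ubiquitin ligase parts Btrc (-0.25), Fbxw11 (0.02) and Fbxl21 (0.23), and the co-repressors Ncor1 (-0.08) and Hdac3 (0.13), on which REV-ERBs rely, were at a higher unadjusted p. Without Smo-KO 4 the log2 fold change of Fbxl21 was 0.07 and that of Ncor1 -0.05, and without Smo-KO 3 that of Btrc was -0.14. The groups did not overlap in 2 of the 10, Gsk3b (4.34% of all genes did not overlap with Smo-KO livers lower) and Hdac3 (3.03% with Smo-KO livers higher). Over both lists 3 of the 20 genes tested (15.0%) were at an unadjusted p under 0.05 beside 13.8% of all genes, with a median log2 fold change of 0.13. That share is near the background, but the count was 5 of 20 without control 4, and likewise without Smo-KO 1.

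Of 14 rhythmic output genes of liver, all tested, 6 were higher at an unadjusted p under 0.05 (Wee1, Tspan4, Por, Nampt, Alas1 and Gys2) and 1 was lower (Insig2), 7 of 14 in all beside 13.8% of all genes, with a median log2 fold change of 0.37. None passed an adjusted p under 0.05 by edgeR, and DESeq2 called Wee1, Por and Alas1. Without both livers numbered 3 the count was 3 higher and 0 lower, and leaving out 1 liver at a time gave 4 to 7 higher. The list was written with earlier results of these livers known, so nothing is read from its count. The part of metabolic regulators other than the clock in these genes was not tested.

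Wee1, a cell cycle kinase known as a direct target of the clock, was 18.6, 15.0, 12.4 and 20.2 CPM in control livers and 19.6, 34.0, 32.6 and 26.0 CPM in Smo-KO livers. Smo-KO 1 was at the level of the controls and the other 3 were above them (log2 fold change 0.76, SE 0.19, adjusted p = 0.146 by edgeR). Por, the reductase that supplies electrons to cytochrome P450 enzymes, was 368.5, 215.7, 190.1 and 298.3 CPM in control livers and 405.2, 503.8, 463.5 and 391.2 CPM in Smo-KO livers. Its groups did not overlap, 1 such gene of 14 beside 7.37% of all genes (log2 fold change 0.72, SE 0.18, adjusted p = 0.146). Alas1, the first enzyme of heme synthesis, was 406.1, 302.6, 312.3 and 392.3 CPM in control livers and 398.7, 751.7, 689.6 and 422.9 CPM in Smo-KO livers. Smo-KO 2 and Smo-KO 3 were high, whereas Smo-KO 1 and Smo-KO 4 were close to control 1 (log2 fold change 0.68, SE 0.19, adjusted p = 0.177). Insig2, which restrains cholesterol and fatty acid synthesis, had means of 324.4 ± 83.0 and 214.2 ± 47.8 CPM (log2 fold change -0.60, SE 0.19).

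**Figure D4:**
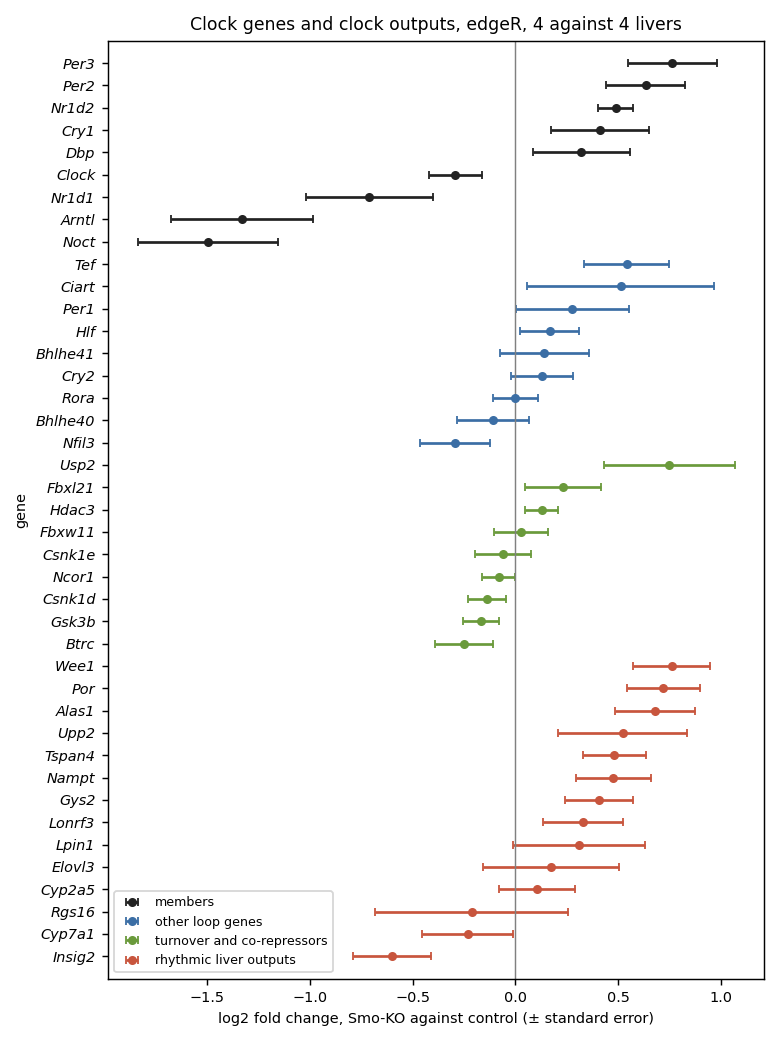
log2 fold change of Smo-KO against control livers with its standard error (edgeR, 4 against 4 livers) for 9 clock genes, 9 other loop genes, 9 genes of turnover and co-repression and 14 output genes, coloured by list. Noct and Arntl lie farthest to the left, at -1.50 and -1.33, and Per3, Wee1 and Usp2 are among those farthest to the right.

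Another 9 rhythmic genes, which follow temperature or glucocorticoids rather than the liver's own clock (Cirbp, Rbm3, heat shock genes, Fkbp5, Tsc22d3 and Sgk1), were all tested, and 0 were at an unadjusted p under 0.05 by edgeR's test, beside 13.8% of all genes, with 0 by DESeq2 at an adjusted p under 0.05. The count depended on the livers used, with 0 to 2 higher and 0 to 1 lower as each liver was left out, and was 1 higher and 1 lower with no filter. The 3 with the smallest p were Fkbp5, Tsc22d3 and Rbm3. Fkbp5, a target of the glucocorticoid receptor, had means of 54.6 ± 16.2 in control and 70.2 ± 12.0 CPM in Smo-KO livers (log2 fold change 0.36, SE 0.18, adjusted p = 0.400). Tsc22d3, another such target, went the other way, with 100.9 ± 25.1 and 79.0 ± 17.5 CPM (log2 fold change -0.35, SE 0.19, adjusted p = 0.424). The log2 fold changes of Fkbp5 and Tsc22d3 were 0.59 and -0.23 without control 4, and 0.24 and -0.51 without control 3. Rbm3, a cold-induced RNA-binding protein, had means of 75.1 ± 8.71 and 85.1 ± 8.70 CPM (log2 fold change 0.18, SE 0.11, adjusted p = 0.477).

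Some of the genes share DNA with a neighbour, which matters if reads were counted without regard to strand. Nr1d1 and Thra, a thyroid hormone receptor gene, are on opposite strands and overlap in 263 exon bases, 8.55% of the exon length of Nr1d1. Thra was 13.6 ± 1.86 CPM in control and 11.9 ± 3.30 CPM in Smo-KO livers (log2 fold change -0.18, SE 0.18, adjusted p = 0.698 by edgeR). Its log2 fold change was -0.05 without Smo-KO 3 and -0.37 without Smo-KO 1. Dbp and Sphk2, a sphingosine kinase gene on the other strand, share 539 exon bases, 18.0% of those of Dbp. Sphk2 was 47.4 ± 1.42 and 43.5 ± 2.02 CPM (log2 fold change -0.12, SE 0.08, adjusted p = 0.532). Over the 8 livers Thra was 8.41 to 16.4 CPM beside 28.6 to 164.9 CPM for Nr1d1, and Sphk2 40.8 to 49.4 CPM beside 80.4 to 209.0 CPM for Dbp. Reads on more than 1 gene were left out, so if strand was ignored, reads in the shared bases could be missing from both genes. How far the shared bases affected the values of Nr1d1 and Dbp was not tested. Per3 overlaps the span of Camta1 with no shared exon base.

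Outside the clock, the genes whose levels went most closely with the phase index were taken from 9328 genes of at least 10 CPM, by Pearson's r over the 8 livers after each group's mean was removed. All genes of 1 library share its depth and the state of that tissue, and r is given as description. The most positive were Eif5 (r = 0.959), Sh3bp1 (0.939), Rras2 (0.938), Map4k4 (0.935) and Ddx52 (0.934). The most negative were Sfxn5 (r = -0.966), Gabbr2 (-0.963), Rere (-0.962), Camk2n1 (-0.959) and Smarcd2 (-0.957). The median r of all candidates was -0.03. With 9328 genes and only 8 livers, some r this far from 0 arise by chance, and how many was not counted. These values leaned on the outer livers, since without control 3 and control 1 the r of Sh3bp1 was 0.481 and that of Rras2 0.566, while Smarcd2 kept -0.972 and Gabbr2 -0.878. Of the 10 clock genes themselves, Per3 (r = -0.905) and Clock (0.889) were nearest to the index that they help to form, and Cry1 (0.172) was farthest from it. Without control 3 and control 1 that order changed, with Per3 at -0.509, Clock at 0.436, Nr1d2 at -0.659 and Noct at -0.649.

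Markers of the liver's cell types were compared because the clock of each could differ. Hepatocyte markers summed to 28900 ± 2545 CPM in control and 28700 ± 629 CPM in Smo-KO livers, with Alb, the albumin gene, most abundant, in a tissue labelled liver, and 1 of 6, Cps1, was lower at an unadjusted p under 0.05. T and NK lymphocyte markers moved with the groups. All 5 tested had lower means in Smo-KO livers, 4 of them at an unadjusted p under 0.05 (Cd3e, Cd3g, Nkg7 and Il2rb), where 7.15% of all genes were lower, and 0 passed an adjusted p under 0.05 by edgeR and 3 by DESeq2. Their summed level was 43.1, 48.6, 42.0 and 55.0 CPM in control livers and 22.8, 18.7, 32.0 and 30.6 CPM in Smo-KO livers, without overlap, and the most abundant was Nkg7. Their part in the clock gene values was not tested. The summed markers of Kupffer cells and macrophages (1370 against 1332 CPM), stellate cells (637.6 against 607.1), sinusoidal endothelium (187.8 against 163.9), cholangiocytes (148 against 177.0) and neutrophils (23.5 against 24.5 CPM) overlapped between the groups. Most of the cholangiocyte sum was Spp1 alone, at 125.8 CPM in control and 153.6 CPM in Smo-KO livers. Of the neutrophil markers Ly6g was at 0 in all livers. Col1a1 of the stellate list and Pecam1 of the endothelial list were lower at an unadjusted p under 0.05. None of the macrophage, cholangiocyte or neutrophil markers was at an unadjusted p under 0.05.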

How the data were processed

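RNA of 8 livers, 4 control and 4 Smo-KO, was studied through counts as deposited by the authors, a list of gene symbols with whole-number reads per liver and no normalization. The submitters' processing notes name fastp, STAR 2.7.5, featureCounts 2.0.1 and GRCm38, while the lists close with the entries that htseq-count writes. Annotation, strand setting and treatment of duplicates were not given in the sources used here, and the labels name a NEBNext Ultra kit. Reads on no feature (7.56% to 9.68% of each library) and on more than 1 gene (2.45% to 2.61%) were left out.

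The clock genes, lists and tests were chosen with earlier results of these data known. The fit by group used edgeR 4.0.16 under R 4.3.3, with limma 3.58.1: low genes were removed with filterByExpr, libraries were scaled by TMM, and p-values of the quasi-likelihood test were adjusted over the 12977 genes left by the method of Benjamini and Hochberg. An alternative test was that of DESeq2 1.42.0. The steps were tested on simulated data. Standard errors are those implied by the F statistic, log2 CPM used a prior count of 2, and figures were drawn with matplotlib 3.10.9. Mice are numbered separately in the labels and were taken as replicates, and p-values measure the spread between these mice. With 4 mice per group and few reads, values of Arntl, Npas2 and Cry1 carry the largest counting error.

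Genes were named by a rule: Smo, the 10 clock genes, all genes of the lists of other loop genes and of turnover and co-repressors, the 3 smallest p of the lists of rhythmic outputs and of temperature- and glucocorticoid-responsive genes, genes that overlap a clock gene, and the 5 genes most alike in each direction. Outside it, other output genes past an unadjusted p of 0.05 and single cell type markers were named after their values were seen. Alternatives were other size factors, DESeq2, no filter, at least 10 counts in every sample, a block for the mouse number, leaving out single mice, plain CPM, another prior count and the median for the phase index, and, chosen after seeing the data, leaving out both mice numbered 3. Results of 2 single genes of the lists are not reported here, and all counts still include them.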

Additional observations from a re-analysis of the deposited data

Results flagged for a closer look

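Of 106 groups of 4 livers examined over 53 measures, 5 had a liver far from the other 3 (Dixon's gap test at 95%), where chance alone gives about 1 in 20, or 5.3. Npas2 was 2.68 CPM in control 3, beside 0.593 to 0.793 CPM in the other controls. Cry1 was 12.1 CPM in Smo-KO 3, beside 5.66 to 6.54 CPM. Gsk3b was 56.0 CPM in control 3, beside 49.5 to 50.4 CPM. Ncor1 was 80.3 CPM in Smo-KO 4, beside 87.7 to 88.7 CPM, and Sh3bp1 was 12.0 CPM in Smo-KO 4, beside 12.4 to 12.5 CPM.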

How the results depend on the processing

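The log2 fold changes of the 9 clock genes kept their sign in all 126 values under the alternatives. None moved by more than 1 SD between mice, but leaving out 1 of 4 mice can hardly move a mean that far. Nothing is therefore read from that limit, and Cry1, at 0.41, was 0.11 without Smo-KO 3. The phase index difference was between -0.75 and -0.14 as each mouse was left out, smallest without control 3, and -0.21 without both mice numbered 3. Of the 9 clock genes tested, 3 did not overlap between groups, and 3 to 5 did not with 1 mouse left out (5 without Smo-KO 1), where fewer mice overlap less by construction. Npas2, fitted with no filter, had a log2 fold change of -1.44 (SE 0.54). The number of genes at an adjusted p under 0.05, 0 by edgeR, was 163 by DESeq2, 61 with no filter, 4 without both mice numbered 3, and 0 to 78 with 1 mouse left out (78 without Smo-KO 1, 5 without control 1 and 4 without Smo-KO 3). At an adjusted p under 0.1 it was 15. The cause was not tested. The number of other clock genes at an unadjusted p under 0.05, 3, was 2 to 5 with 1 mouse left out, 5 both without control 4 and without Smo-KO 1. With the mouse number as a replicate block, 8 genes were at an adjusted p under 0.05 and 5 other clock genes at an unadjusted one. Same-numbered mice correlated at 0.104, 0.187, 0.0611 and 0.113, all above 0, and mice of different numbers at -0.205 to 0.157. Not every mouse correlated best with its own number. The labels name no pairs, so the numbers were not taken as pairs. Whether mice of the same number shared a batch was not tested. Among the other 39 named genes, 25 of 546 values changed sign, all of genes with a log2 fold change between -0.11 and 0.14. Rora, at -0.00, was 0.0047 with other size factors and 0.0047 with DESeq2, 0.0037 with at least 10 counts and 0.10 without both mice numbered 3. With 1 mouse left out Rora ranged from -0.0661 to 0.0534, Cry2 from -0.00585 to 0.225, Bhlhe40 from -0.238 to 0.0197, Bhlhe41 from -0.0785 to 0.254, Csnk1e from -0.154 to 0.0171, Fbxw11 from -0.0670 to 0.116, Eif5 from -0.0110 to 0.113, Rras2 from -0.0534 to 0.115, Ddx52 from -0.0328 to 0.0916 and Rere from -0.0491 to 0.0175. An adjusted p under 0.05 was reached in 9 of those values, among them values of Smo, Wee1, Por and Alas1. No scaling moved the median of all genes by more than 0.00694 on the log2 scale.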
